A study of Homo sapiens with 6 samples.

Results

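The interferon-stimulated genes described here are 47 listed genes whose transcription is known to follow interferon signalling, with the guanylate-binding protein (GBP) genes among them. They were taken by gene symbol from an expression array table of SKOV3, a human cell line established from an ovarian carcinoma. A probe set was found for 33 of the 47 genes, out of 14884 genes with a symbol. The other 14 were not analysed here: CMPK2, GBP1, GBP2, IFI6, IFI16, IFI27, IFI30, MX1, OAS1, OAS2, OAS3, PARP9, PARP14 and STAT2. In the 3D group (n = 3), SKOV3 cells were cultured for 11 days on low-attachment plates, and their medium held 0.015% (w/v) of FP001, an additive known here only by this code name. In the 2D group (n = 3), the same cells had spent 11 days on attachment plates without FP001. All cells were in McCoy's 5A medium with 15% fetal bovine serum. Plate and additive changed together, so their contributions cannot be told apart.

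Interferons are secreted proteins that bind cell surface receptors and, through JAK kinases, activate STAT transcription factors. Type I and type III interferons act through a complex with IRF9 that binds the interferon-stimulated response element (ISRE) in promoters. Interferon gamma acts through the gamma-activated site (GAS) and induces the factor IRF1, which in turn acts on GBP and other genes. The products sense viral RNA, block viral entry or replication, conjugate the ubiquitin-like protein ISG15, or, as the GBPs do, assemble on the membranes of intracellular pathogens. Many of these genes also have a basal level in cancer cell lines grown without added interferon.

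Values are log2 RMA values, in which background is corrected and arrays are scaled to a common distribution, and changes are 3D minus 2D. A level is comparable between arrays for 1 probe set, not between genes. Array medians ran from 4.30 to 4.37 and lower quartiles from 2.92 to 2.97. Replicates 2 and 3 of the 3D group correlated at 0.995 over all genes, and 3D replicate 1 correlated with each at 0.988, so 3D replicate 1 stood somewhat apart. Of 14 ovarian carcinoma epithelial markers 10 were annotated, among them PAX8 (10.13 to 10.45 on the 6 arrays) and the keratin gene KRT18 (9.50 to 10.23). PAX8 and KRT18 did not pass the test described below and had the highest values of the markers that did not. MSLN, KRT8 and WT1 did not pass either, and their means over all arrays were 6.83, 5.74 and 5.23. Of these 10 markers 4 rose in 3D, KRT19 (2.70), EPCAM (1.76), ESR1 (1.43) and CLDN4 (0.64), and 1 fell, KRT7 (-0.93). Their mean deviation from each gene's mean was 0.18, 0.41 and 0.42 on the 3D arrays, against -0.33, -0.34 and -0.33 on the 2D arrays, and its part in the results below was not tested. The labels leave unsaid whether replicates were separate cultures, and p-values then measure a spread that may be technical only. In bulk RNA, a change in the share of cells that express a gene cannot be told apart from a change per cell.

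The interferon-stimulated genes did not move as a block. Of the 33 genes, 9 rose in 3D culture (27.3%), 2 fell (6.06%) and 22 did not pass the test, which was limma with Benjamini-Hochberg adjustment over all 14884 genes and a threshold of 0.05. Over all genes 10% passed, 5.23% higher and 4.77% lower in 3D. The risers were GBP5, IFI44L, GBP4, ISG20, BST2, USP18, SAMD9L, PLSCR1 and RIGI, and the genes that fell were IRF1 and XAF1. The median change of the 33 genes was 0.16, against -0.01 for all genes. All 3D arrays lay above all 2D arrays for 12 of the 33 genes (13.8% of all genes) and below them for 5 (15.3% of all genes), so the groups were apart for 17 (51.5%, against 29.2% of all genes). Among the risers, GBP5, IFI44L, GBP4, ISG20 and BST2 passed in every alternative run on them, while the other 4 risers and both genes that fell lost the call in some. Both the test of all probe sets singly and a test against a 1.2-fold limit ended those 6 calls, median centring ended the calls of RIGI and SAMD9L, and a repeated quantile normalization that of RIGI.

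**Figure D1:**
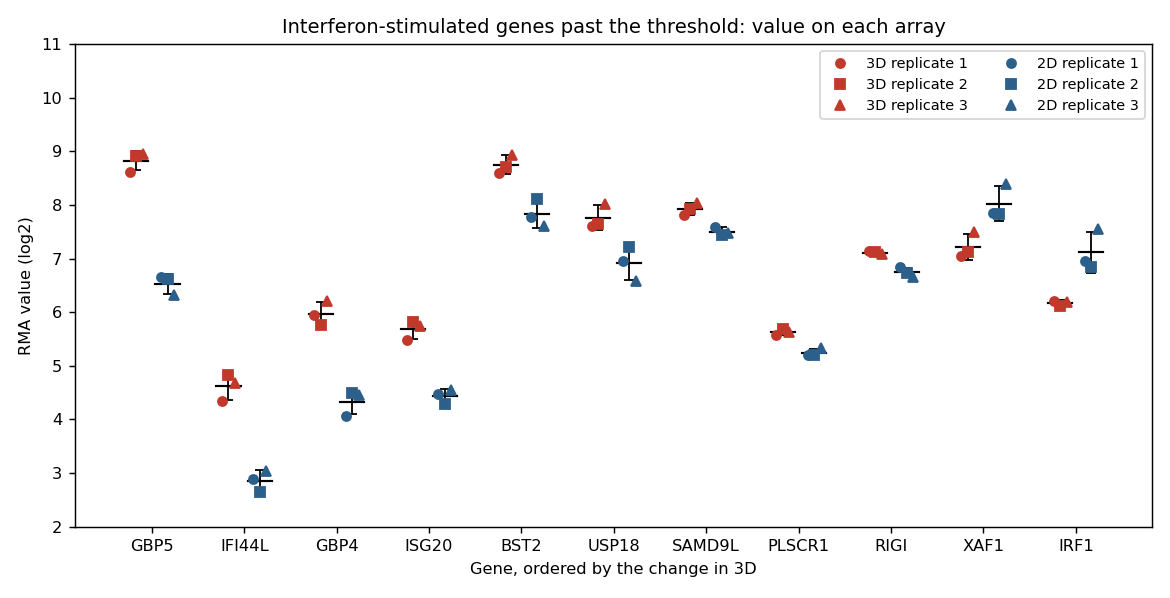
Log2 RMA value (y axis) of the 11 interferon-stimulated genes past the threshold (x axis) on each array, with 3D arrays in red left of 2D arrays in blue. Symbols mark replicates, bars are means and whiskers the SD (n = 3 per group); GBP5 reads 8.62 to 8.94 in 3D and 6.32 to 6.66 in 2D, and IRF1 and XAF1 are the genes with lower 3D values.

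Promoters were read to describe the motifs that these genes hold. The genes were listed for following interferon signalling, in which the ISRE takes part. A high share with an ISRE core is therefore not independent of how the list was made. RefSeq windows of GRCh38.p14, from 250 bases before the transcription start site to 50 bases from it on, were held for 26 of the 33 genes. The ISRE core was searched as GAAANNGAAA and the GAS as TTCNNNGAA, on both strands, and matches of the 2 motifs may overlap. An ISRE core stood in any window of 19 of the 26 genes (73.1%), against 3.89% of the 10749 tested genes with a window and 3.57% of all 35116 windows. A GAS stood in 8 of the 26 (30.8%), against 8.79% of the tested genes and 7.66% of all windows. Among genes that rose, 5 of 7 with a window held an ISRE core, and among those that did not pass, 14 of 17 did. RIGI and SAMD9L, which also rose, held neither motif in their windows. Neither gene that fell held an ISRE core, and IRF1 held a GAS. A match is a description of letters and not a binding site.

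The 180 bases before the start site are printed 5′ to 3′ on the gene's strand. For GBP4 the 6 bases from the start site on, which complete its motif, are added. The genes printed are the 5 that rose and hold an ISRE core, IRF1, and ISG15 and IFIT1. ISG15 and IFIT1 hold ISRE cores and did not pass the test. Capitals mark ISRE cores and GAS matches that start before the start site. The stretches lie on GRCh38.p14 at chr1:89198937-89199122 on the minus strand (GBP4), chr1:78620268-78620447 on the plus strand (IFI44L), chr15:88638836-88639015 on the plus strand (ISG20), chr19:17405631-17405810 on the minus strand (BST2) and chr3:146544608-146544787 on the minus strand (PLSCR1). Those of the other genes are chr5:132490774-132490953 on the minus strand (IRF1), chr1:1013317-1013496 on the plus strand (ISG15) and chr10:89392443-89392622 on the plus strand (IFIT1).
GBP4: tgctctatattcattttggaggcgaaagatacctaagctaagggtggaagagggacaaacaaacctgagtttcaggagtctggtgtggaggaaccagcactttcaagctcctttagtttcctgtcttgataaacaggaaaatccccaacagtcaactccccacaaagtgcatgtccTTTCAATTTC
IFI44L: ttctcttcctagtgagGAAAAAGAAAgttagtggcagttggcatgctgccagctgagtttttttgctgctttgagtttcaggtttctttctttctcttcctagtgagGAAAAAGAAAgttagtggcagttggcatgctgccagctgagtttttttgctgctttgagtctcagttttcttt
ISG20: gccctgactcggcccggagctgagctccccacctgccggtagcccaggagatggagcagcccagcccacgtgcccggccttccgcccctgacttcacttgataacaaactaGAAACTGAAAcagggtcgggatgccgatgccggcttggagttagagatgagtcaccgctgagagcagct
BST2: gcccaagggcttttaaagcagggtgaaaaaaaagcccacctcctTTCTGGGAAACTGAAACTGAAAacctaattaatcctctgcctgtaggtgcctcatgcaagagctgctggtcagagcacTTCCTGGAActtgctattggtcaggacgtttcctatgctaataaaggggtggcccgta
PLSCR1: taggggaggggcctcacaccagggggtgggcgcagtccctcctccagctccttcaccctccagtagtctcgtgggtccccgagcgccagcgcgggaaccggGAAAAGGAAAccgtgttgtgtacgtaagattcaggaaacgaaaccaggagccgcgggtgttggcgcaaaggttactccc
IRF1: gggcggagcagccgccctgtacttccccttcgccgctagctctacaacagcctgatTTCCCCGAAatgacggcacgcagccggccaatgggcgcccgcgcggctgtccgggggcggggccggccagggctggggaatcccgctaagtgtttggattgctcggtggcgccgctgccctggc
ISG15: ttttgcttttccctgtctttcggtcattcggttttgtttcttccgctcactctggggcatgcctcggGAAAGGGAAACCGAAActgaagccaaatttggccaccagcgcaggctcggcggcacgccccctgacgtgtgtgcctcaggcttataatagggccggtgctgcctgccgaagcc
IFIT1: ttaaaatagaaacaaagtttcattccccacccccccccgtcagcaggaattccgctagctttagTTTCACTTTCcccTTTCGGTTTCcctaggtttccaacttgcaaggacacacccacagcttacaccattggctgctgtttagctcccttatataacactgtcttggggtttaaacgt

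In IFI44L the same 10 letters occur at positions -164 and -73, counted from the base before the start site as -1. The BST2 stretch holds 2 overlapping ISRE cores, the first at position -130, which a GAS from position -136 also overlaps. GBP4 has its match across the start site, from position -4 to position 6. ISG15 holds 2 overlapping cores from positions -113 and -107, and IFIT1 2 separate ones, so the letters alone do not divide the genes that passed from those that did not.

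**Figure D2:**
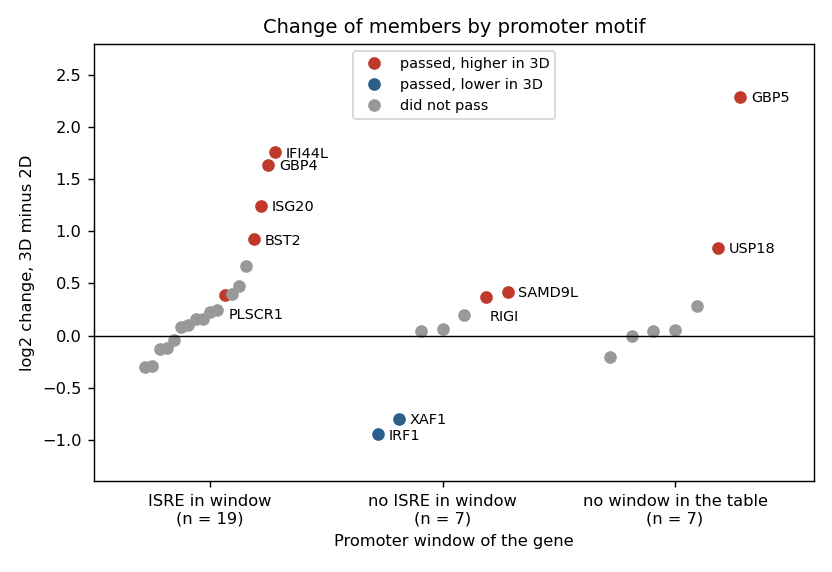
Log2 change, 3D minus 2D (y axis), of the 33 genes, split by whether their RefSeq promoter window holds an ISRE core (19 genes), holds none (7 genes) or is not in the table (7 genes). Red points passed and were higher in 3D, blue points passed and were lower in 3D, grey points did not pass; genes with an ISRE core range from -0.30 (IFIT5) to 1.76 (IFI44L).

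The guanylate-binding proteins are interferon-inducible GTPases, and 3 of the 5 listed had a probe set. GBP5, which is known in macrophages for its part in inflammasome assembly, read 8.62, 8.91 and 8.94 on the 3D arrays, against 6.66, 6.61 and 6.32 on the 2D arrays. The groups lay far apart, with the lowest 3D value well above the highest 2D value. GBP5 rose by 2.29 ± 0.14 (SE, adjusted p = 0.000119), 4.90-fold, the largest change among the 33 genes. GBP4 read 5.95, 5.77 and 6.21 on the 3D arrays, against 4.06, 4.49 and 4.45 on the 2D arrays. It rose by 1.64 ± 0.16 (SE, adjusted p = 0.000802), 3.12-fold, again without overlap. The 2D mean of GBP4, 4.33, lay at about the array medians, and without detection calls this fold is uncertain. GBP3 read 7.34, 7.15 and 7.33 in 3D, against 7.55, 7.39 and 7.24 in 2D, and the groups overlapped. Its change was -0.12 with a 95% confidence interval of -0.39 to 0.15 (adjusted p = 0.617), so a rise of the size seen for GBP4 lies outside its interval. GBP4 and GBP5 are direct neighbours among protein-coding genes in the RefSeq order. The GBP genes are close paralogs, and how far the probes cross-hybridise was not tested.

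IFI44L and IFI44 are neighbouring paralogs that code for proteins with reported antiviral activity. IFI44L read 4.34, 4.84 and 4.68 on the 3D arrays, against 2.90, 2.64 and 3.03 on the 2D arrays. The 2D mean of 2.86 lay under the lower quartile of every array, where RMA compresses differences. IFI44L rose by 1.76 ± 0.16 (SE, adjusted p = 0.000572). The table holds no detection calls, so the corresponding 3.39-fold is uncertain. IFI44 read 5.43, 6.06 and 6.18 in 3D, against 5.56, 5.25 and 4.84 in 2D. Replicate 1 of the 3D group lay below replicate 1 of the 2D group, so the groups overlapped. The change of IFI44 was 0.67 ± 0.24 (SE, adjusted p = 0.137), and without 3D replicate 1 it passed (adjusted p = 0.0354). IFI35, which forms a complex with NMI, gave a difference of 0.06 (95% confidence interval -0.15 to 0.27) with overlapping groups.

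XAF1, which binds the apoptosis inhibitor XIAP, went the other way. It read 7.04, 7.13 and 7.50 on the 3D arrays, against 7.85, 7.83 and 8.39 on the 2D arrays. XAF1 fell by 0.80 ± 0.19 (SE, adjusted p = 0.0370), 1.74-fold lower in 3D, without overlap. The call ended in every fit without a single array except that without 3D replicate 3, with an adjusted p of up to 0.123.

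Among the signalling and transcription factors, IRF1 fell and the other annotated factors did not pass. IRF1 read 6.20, 6.11 and 6.19 on the 3D arrays, against 6.96, 6.84 and 7.55 on the 2D arrays. The 3D values were tightly grouped and all below the 2D values, of which 2D replicate 3 was the highest. IRF1 fell by 0.95 ± 0.18 (SE, adjusted p = 0.0160), 1.93-fold lower in 3D, and without 3D replicate 2 or 3 it did not pass (adjusted p up to 0.0618). IRF7, the factor that amplifies type I interferon transcription, gave a difference of 0.04 (95% confidence interval -0.21 to 0.29). IRF9, a DNA-binding subunit of the complex at the ISRE, also gave a difference of 0.04 (-0.25 to 0.33).

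Among the transcripts of the ISG15 system, that of the protease rose and that of the modifier showed no detectable change. USP18, which removes ISG15 from proteins and also restrains type I interferon receptor signalling, read 7.60, 7.65 and 8.02 on the 3D arrays, against 6.95, 7.21 and 6.58 on the 2D arrays. It rose by 0.84 ± 0.18 (SE, adjusted p = 0.0278), 1.79-fold, without overlap. The call ended without 3D replicate 2 or 3 or 2D replicate 1 or 3 (adjusted p up to 0.0947), and near-identical USP18-related copies in the genome make the value uncertain. ISG15 itself gave a difference of -0.05, with a 95% confidence interval of -0.35 to 0.25 and overlapping groups. The ligase gene HERC5 gave a difference of 0.16 (-0.08 to 0.40). Its neighbour HERC6 read 8.49, 8.60 and 8.68 in 3D, against 8.42, 8.42 and 8.33 in 2D. These HERC6 values did not overlap, but the change of 0.20 ± 0.09 (SE) did not pass (adjusted p = 0.257).

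Of the 3 annotated genes for RNA sensing and antiviral helicases, RIGI rose and IFIH1 and DDX60 did not pass. RIGI, which recognises viral RNA with a 5′ triphosphate, read 7.14, 7.11 and 7.08 on the 3D arrays, against 6.84, 6.74 and 6.66 on the 2D arrays. It rose by 0.37 ± 0.09 (SE, adjusted p = 0.0454), 1.29-fold, without overlap. That call ended in each fit without a single array (adjusted p from 0.0639 to 0.149). IFIH1, which codes for the sensor MDA5 of long double-stranded RNA, gave a difference of 0.47 ± 0.16 (SE, adjusted p = 0.125) and passed without 3D replicate 1 (adjusted p = 0.0206). DDX60, a related helicase gene, read 6.97, 7.01 and 7.18 in 3D, against 6.94, 6.97 and 6.57 in 2D. The DDX60 groups lay just apart, and its change of 0.23 did not pass (adjusted p = 0.365).

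**Figure D3:**
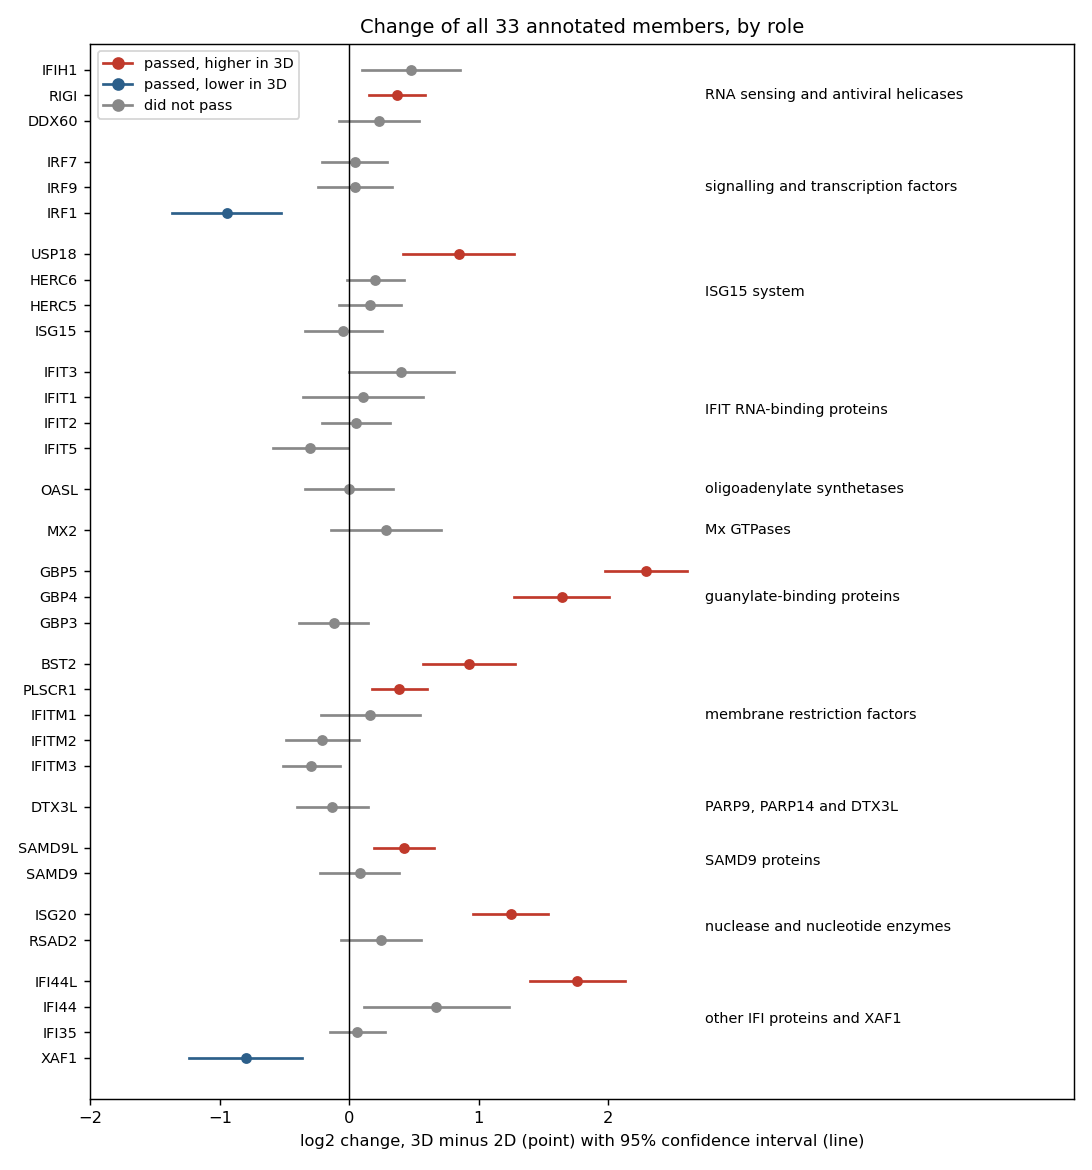
Log2 change, 3D minus 2D (x axis, points), with its 95% confidence interval (lines) for the 33 genes, grouped by role down the page. Red genes passed and were higher in 3D, blue genes passed and were lower, grey genes did not pass; GBP5 (2.29), IFI44L (1.76), GBP4 (1.64) and ISG20 (1.25) lie farthest to the right, and the 2D mean of IFI44L is under the lower quartile of every array.

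Among the membrane restriction factors BST2 and PLSCR1 rose, and no IFITM gene passed. BST2, or tetherin, which holds budding enveloped viruses at the cell surface, read 8.60, 8.71 and 8.94 on the 3D arrays, against 7.77, 8.11 and 7.61 on the 2D arrays. It rose by 0.93 ± 0.15 (SE, adjusted p = 0.00898), 1.90-fold, without overlap. PLSCR1, a membrane-associated scramblase family protein, read 5.57, 5.68 and 5.64 in 3D, against 5.21, 5.20 and 5.32 in 2D. It rose by 0.39 ± 0.09 (SE, adjusted p = 0.0377), and among the fits without a single array the call held only without 3D replicate 1 (adjusted p up to 0.147 in the others).

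The IFITM proteins hinder fusion of viruses with cell membranes. IFITM3 read 6.29, 6.32 and 6.39 on the 3D arrays, against 6.58, 6.73 and 6.58 on the 2D arrays. All 3D values were lower, and the change of -0.29 ± 0.09 (SE) did not pass (adjusted p = 0.0995). IFITM2 read 10.48, 10.64 and 10.66 in 3D, against 10.70, 11.02 and 10.69 in 2D, so the groups were narrowly apart. The change of IFITM2 was -0.21 (adjusted p = 0.360), and that of IFITM1 was 0.16 with overlapping groups (adjusted p = 0.646). The 3 genes lie side by side and are highly similar in sequence, so the values of their probe sets are uncertain.

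ISG20, a 3′ to 5′ exonuclease gene, read 5.49, 5.82 and 5.74 on the 3D arrays, against 4.47, 4.29 and 4.55 on the 2D arrays. The groups were well apart, and ISG20 rose by 1.25 ± 0.12 (SE, adjusted p = 0.000900), 2.37-fold. The 2D mean of ISG20, 4.44, lay close to the array medians, and without detection calls this fold is uncertain. RSAD2, whose product viperin makes a chain-terminating nucleotide, gave a difference of 0.24 (95% confidence interval -0.07 to 0.55). The mean of RSAD2 over all arrays, 4.13, lay below every array median, so whether it was detected is uncertain. SAMD9L, which restricts poxviruses and represses translation, read 7.82, 7.93 and 8.03 in 3D, against 7.60, 7.44 and 7.47 in 2D. It rose by 0.42 ± 0.10 (SE, adjusted p = 0.0390), and among the fits without a single array the call held only without 3D replicate 1 (adjusted p up to 0.147 in the others). The neighbouring paralog SAMD9 gave a difference of 0.08 (-0.22 to 0.38), with overlapping groups.

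Several classical type I interferon effectors did not pass. The IFIT proteins bind viral RNA ends, and of the 4 annotated IFIT genes 0 passed (limma), with 1 lower gene, IFIT5, at an unadjusted p under 0.05. IFIT1 gave a difference of 0.10 (95% confidence interval -0.36 to 0.57) and IFIT2 one of 0.05 (-0.21 to 0.31). IFIT3 read 6.50, 6.32 and 6.47 in 3D, against 5.62, 6.23 and 6.23 in 2D. These IFIT3 groups were narrowly apart, and the change was 0.40 (adjusted p = 0.218). IFIT5 read 7.26, 7.24 and 7.29 in 3D, against 7.32, 7.73 and 7.66 in 2D, with a change of -0.30 (adjusted p = 0.193). OASL, the oligoadenylate synthetase-like gene, gave a difference of -0.003 (-0.34 to 0.33). MX2, a GTPase gene that blocks nuclear steps of HIV infection, gave a difference of 0.28 (-0.14 to 0.71). The mean of MX2 over all arrays, 4.09, lay below every array median, so whether it was detected is uncertain. The ligase gene DTX3L gave a difference of -0.13 (-0.40 to 0.14).

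**Figure D4:**
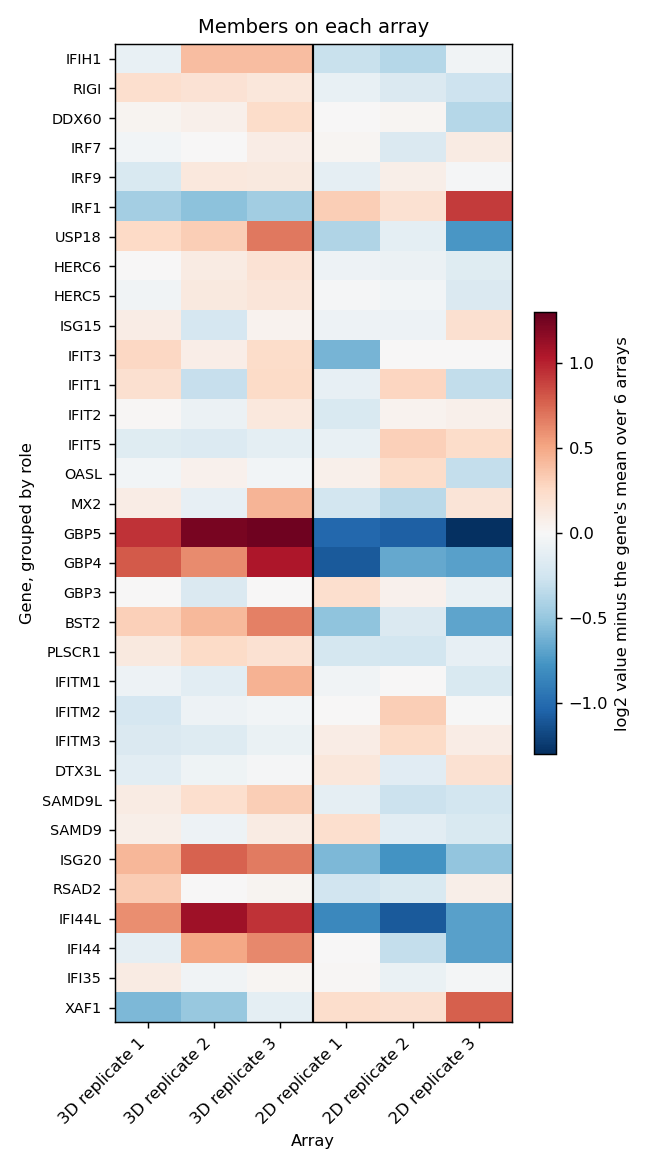
Log2 value minus the gene's mean over 6 arrays (colour) for the 33 genes (rows, grouped by role) on the 3 arrays of the 3D group and then the 3 of the 2D group (columns). GBP5, GBP4, ISG20 and IFI44L are above their mean on each 3D array, IRF1 and XAF1 are below it, and IFI44 and IFIH1 are below it on 3D replicate 1 but above it on the other 3D arrays.

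Averaged over the 33 genes, the deviation from each gene's mean was 0.08, 0.12 and 0.26 on the 3D arrays, against -0.17, -0.14 and -0.15 on the 2D arrays. The 3D value was lowest on 3D replicate 1. Without that array 10 of the 33 genes were higher in 3D and 1 was lower. Without any other single array 5 or 6 were higher and 0 or 1 lower. The count of higher genes over all genes moved in the same way, with 1096 without 3D replicate 1, against 420 to 515 without any other array. The count of lower genes over all genes also grew without 3D replicate 1, to 803, against 349 to 440 without any other array. The counts of lower members are too small to show whether they moved in the same way.

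Upstream of these genes, 8 of 18 receptor, kinase, STAT and feedback genes were annotated, of which 0 rose and 1 fell. SOCS3, a feedback inhibitor of cytokine receptor signalling, read 6.25, 5.83 and 5.89 on the 3D arrays, against 7.00, 6.99 and 7.29 on the 2D arrays. It fell by 1.10 ± 0.15 (SE, adjusted p = 0.00339). The interferon gamma receptor chain gene IFNGR1 gave a difference of 0.42 (adjusted p = 0.0742) and IFNGR2 one of 0.04 (adjusted p = 0.867). The kinase gene JAK1 gave a difference of -0.41 (adjusted p = 0.0583, and 0.0208 without 3D replicate 1) and TYK2 one of -0.13 (adjusted p = 0.555). IFNAR1, IFNAR2 and the 10 interferon genes on the list were not analysed here.

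Of 19 genes for nucleic acid sensing and IRF factors 17 were annotated, and 2 rose and 0 fell. TLR3, the endosomal receptor for double-stranded RNA, read 7.40, 7.36 and 7.65 on the 3D arrays, against 6.67, 6.69 and 6.57 on the 2D arrays. It rose by 0.83 ± 0.11 (SE, adjusted p = 0.00353). DHX58, which codes for LGP2, a regulator of RIGI and MDA5, rose by 0.46 ± 0.10 (SE, adjusted p = 0.0303), a call that ended in each fit without a single array (adjusted p up to 0.110).

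Of 60 other interferon-induced genes 36 were annotated, and 1 rose and 5 fell. Their median change was -0.03, with 17 differences positive and 19 negative. All 3D arrays lay above all 2D arrays for 4 of the 36 (13.8% of all genes) and below them for 12 (15.3% of all genes). This list therefore did not share the positive median of the 33 genes. The IFITM family member IFITM10 rose by 0.82 ± 0.10 (SE, adjusted p = 0.00246), although its own induction by interferon is not taken as given here. The genes that fell were the immune checkpoint ligand gene CD274 (-0.68), the nuclear body gene SP100 (-0.56), the IFI35 partner gene NMI (-0.55), OGFR (-0.51) and the large ubiquitin ligase gene RNF213 (-0.51). SP100 kept its call in each fit without a single array, and the other 4 lost it in at least 3 such fits (adjusted p up to 0.129).

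Antigen presentation was sparsely annotated. Of 22 class I genes 7 had a probe set, and 1 rose, the endoplasmic reticulum chaperone gene CALR (0.51 ± 0.10 SE, adjusted p = 0.0224, up to 0.0888 without single arrays). The class I light chain gene B2M gave a difference of 0.08 (adjusted p = 0.686). Of 9 class II genes only CTSS, for the lysosomal protease cathepsin S, was annotated. It read 7.02, 6.94 and 6.73 on the 3D arrays, against 5.87, 5.86 and 5.79 on the 2D arrays, a rise of 1.06 ± 0.11 (SE, adjusted p = 0.000924). Over these lists together, 5 of 69 annotated genes rose and 6 fell, with a median change of 0.04. Over all genes 5.23% rose and 4.77% fell, and the counts of each list are to be read beside these shares.

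GBP5 and several other risers are also known from leukocytes, so leukocyte markers were measured beside them. Of 20 markers 9 were annotated, and 2 rose, the lysozyme gene LYZ (1.83 ± 0.29 SE, adjusted p = 0.00739) and the lysosomal glycoprotein gene CD68 (0.68 ± 0.11, adjusted p = 0.00871). The others did not pass, among them the monocyte and macrophage genes CD14 (-0.41, adjusted p = 0.168) and CSF1R (-0.38, adjusted p = 0.167), whose differences had the opposite sign. CD2, NKG7 and TYROBP were also on the negative side, and GNLY and LCP1 on the positive side, so that 4 of 9 differences were positive, with a median of -0.07. The mean log2 level of the 9 genes was 5.07 to 5.16 on the 3D arrays and 4.84 to 4.98 on the 2D arrays, and their summed linear values, to which CD68 contributed the most, were 1058 to 1070 on the 3D arrays and 661 to 765 on the 2D arrays. PTPRC, the pan-leukocyte marker, was not analysed here, and a log2 array value has no true 0. The part of these markers in the results was not tested.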

How the data were processed

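Expression was measured on 6 arrays of SKOV3 RNA, 1 per sample, 3 from 3D and 3 from 2D culture. Per the labels' protocols, biotin-labelled cRNA was made from 100 ng of total RNA with a 3′ IVT kit, whereas the probe annotation is that of a whole-transcript Gene ST array; this mismatch was not resolved, so where in a transcript a probe set measures is uncertain. The authors deposited log2 values for 53617 probe sets, made with RMA per the submitters' processing notes. In the sources used here, neither software version nor filters are given. Values from 0.30 to 13.87 mark a log2 scale. The platform annotation gave 1 symbol to 16098 probe sets, several to 0 and none to 37519; all 16098 gene identifiers were found in RefSeq, used for current symbols. Each of the 14884 genes was represented by its brightest probe set, by the mean of the 6 arrays, and each of the 33 genes had 1 probe set.

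Groups were compared with limma 3.58.1 in R 4.3.3 (lmFit and eBayes, group alone, two-sided), with Benjamini-Hochberg adjustment over all 14884 genes and a threshold of 0.05. Members, lists and tests were chosen with earlier results of these data known. Every annotated member is named, and values on each array are given for members that passed, whose groups did not overlap or that differed by at least 0.5; from other lists, up to 6 genes past the threshold and 8 set genes are named, of which 5 are annotated. For leukocyte and epithelial markers that did not pass, which are named and with which values was chosen after their values were seen. On simulated data for 14884 genes, of which 200 were changed, the fit recovered 79% of 2-fold and 97% of 4-fold changes. In the data 1488 genes passed, so the simulated setting differs from them. Changes under 2-fold were not simulated, so how many of those the fit would miss is not known. Alternatives were a repeated quantile normalization, median centring, leaving out dim genes, 3 other treatments of probe sets, the replicate number as a block, trended robust variances, a 1.2-fold limit and leaving out each array. No depth exists for arrays, and their number limits the precision.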

Additional observations from a re-analysis of the deposited data

How the results depend on the processing

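Repeated quantile normalization, median centring, leaving out dim genes and a trended robust variance kept the count of members higher in 3D (9) within 7 to 9 and the count lower (2) at 2; median changes over all genes moved by less than 0.1. Each of the 33 members has 1 probe set, so averaging probe sets or taking the most variable one could not alter its change. GBP5, GBP4, ISG20, BST2 and IFI44L passed in each alternative run on them (IFI44L was not tested with dim genes left out). MX2 and RSAD2, which did not pass, were also not tested with dim genes left out. With all probe sets tested singly 5 members were higher and 0 lower, and 5 pathway list genes passed in place of 11. Against a 1.2-fold limit the counts were 5 higher, 0 lower, 4 pathway list genes and 592 of all genes, in place of 1488. A trended robust variance gave 17 pathway list genes. Leaving out single arrays gave 775 to 1899 of all genes, 5 to 10 members higher, 0 to 1 lower, and 5 to 17 pathway list genes.

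Same-numbered samples did not deviate together (correlations of deviations from the group means -0.28, -0.06 and -0.18), and no 3D sample correlated best with its own number. With the replicate number as a block, 760 genes, 5 members higher, 2 lower and 6 pathway list genes passed.

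Small changes that did not pass turned sign when single arrays were left out, with these ranges: IRF7 (-0.045 to 0.104), IRF9 (-0.017 to 0.151), ISG15 (-0.107 to 0.051), IFIT1 (-0.033 to 0.279), IFIT2 (-0.030 to 0.103), OASL (-0.157 to 0.116), IFITM1 (-0.024 to 0.271), SAMD9 (-0.001 to 0.207) and IFNGR2 (-0.014 to 0.077). With array medians centred, OASL gave 0.002. The cause of these shifts was not tested.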
